A study of Mus musculus with 4 samples.

Results

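Genes for the coat of lipid droplets and for the breakdown of the fat they hold were compared between the livers of 2 inbred mouse strains. The members were chosen by name, with earlier results of these data known. These were the perilipins Plin2, Plin3, Plin4 and Plin5, the CIDE genes Cidea, Cideb and Cidec, and the lipolysis genes Pnpla2, Abhd5 and G0s2. They are 10 of the 50584 gene symbols in the count files, and 9 of them passed the filter on low counts, as did 15647 symbols in all. Liver poly(A) RNA was sequenced from DBA/2J mice (2 libraries) and C57BL/6J mice (2 libraries), a series made to study the malonyl-CoA decarboxylase gene of DBA/2J. All animals were males of 14 weeks, labelled wild type and fed chow, so age, sex and diet were shared by both strains. The labels used here give neither the feeding state nor the time of day at which livers were taken. With 2 mice a strain, each p-value below measures only the spread between these 4 livers. Whole liver was measured, so less RNA per cell and fewer cells of a type cannot be told apart.

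A hepatocyte stores triglyceride in lipid droplets, which are covered by a single layer of phospholipid and by coat proteins. Perilipins sit on that surface and limit the access of lipases, and CIDE proteins work where droplets touch and pass lipid from one to another. Adipose triglyceride lipase, encoded by Pnpla2, takes the first fatty acid off a triglyceride. It is activated by the Abhd5 product (CGI-58) and inhibited by the G0s2 product.

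Total counts per library ranged from 48096706 to 52520737, so that 3 counts, taken as the floor, were worth 0.0542 to 0.0622 CPM (counts divided by library size and multiplied by a fixed factor, with sizes adjusted by the TMM method). Hepatocyte markers were abundant in all 4 libraries, with a summed level of 85770 to 96470 CPM over 7 genes. A pair of libraries stood apart. DBA/2J replicate 1 held reads of fat-cell genes: Ucp1, the uncoupling protein of brown fat, had 65 counts there and 0, 0 and 1 counts in DBA/2J replicate 2, C57BL/6J replicate 1 and C57BL/6J replicate 2. C57BL/6J replicate 1 was high in acute-phase genes, with 95929 counts of Saa1, a serum amyloid A gene, against 6897 in the other C57BL/6J library and 4792 and 1988 in the DBA/2J libraries. Member results whose call or sign turned on either library, and the list counts that it moved most, are therefore given with and without it. In every list of 4 values that follows, the order is DBA/2J replicate 1, DBA/2J replicate 2, C57BL/6J replicate 1 and C57BL/6J replicate 2.

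Plin4 and Pnpla2 were lower in DBA/2J. Plin4 fell by 1.06 on the log2 scale and Pnpla2 fell by 0.42. No member was called higher, and the other 7 tested members missed the threshold. A gene was called at a Benjamini-Hochberg adjusted p below 0.05 in edgeR's quasi-likelihood test over all tested genes. By that rule 2 of 9 tested members (22.2%) were called, against 18.2% of all tested genes. In the direction of lower expression it was 2 of 9 members against 8.87% of all tested genes, and in the direction of higher expression 0 of 9 against 9.29%. At an unadjusted p below 0.05 edgeR counted 4 members lower and 1 higher. For that rule, here and below, the share of all tested genes was not counted. DESeq2 called 3 members lower and 0 higher, and of all 15647 tested genes 1642 lower and 1658 higher (21.1% in either direction). For 6 of 9 members (66.7%) the values of both strains stood fully apart, against 63.8% of all tested genes. This share and the share that edgeR called in either direction lay near their background. Of these 6 members, Plin2, Plin4, Cidec, Pnpla2 and Abhd5 were lower in both DBA/2J libraries and Plin3 was higher. The median log2 difference (DBA/2J over C57BL/6J) was -0.42 over the 9 members and 0.01 over all tested genes. It was negative for 7 of 9 members and for 49.3% of all tested genes. This lean rested largely on 1 library: without C57BL/6J replicate 2 the median was -0.0048, with 5 negative and 5 positive members. Cidea, at a positive difference, passed the filter in that fit and in those without DBA/2J replicate 2 or C57BL/6J replicate 1. Over the 9 members tested with all libraries, the median without C57BL/6J replicate 2 was -0.033 (the value of Abhd5). Without DBA/2J replicate 2 the median was -0.26 with Cidea and -0.39 over the 9 (the value of Pnpla2). Without C57BL/6J replicate 1 these medians were -0.47 and -0.51 (the value of Plin5). Without DBA/2J replicate 1, where Cidea was not tested, the median was -0.47.

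**Figure D1:**
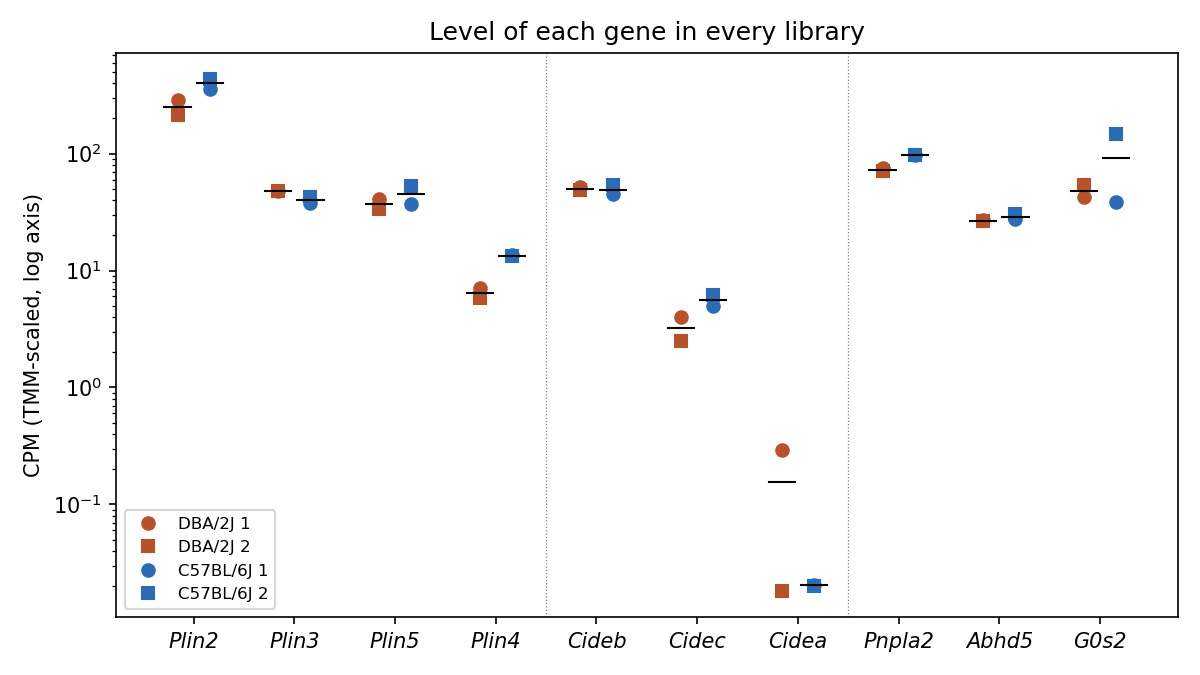
Level of each of the 10 genes in every library, in CPM on a log axis, with brown marks for DBA/2J, blue marks for C57BL/6J, circles for replicate 1, squares for replicate 2 and a line at each strain's mean. The strains separate for Plin2, Plin4, Cidec, Pnpla2 and, by a small margin, Abhd5 (DBA/2J lower) and for Plin3 (DBA/2J higher), while the C57BL/6J marks of G0s2 lie at 38.2 and 147 CPM.

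The 250 bases before the RefSeq start sites of both called genes are shown first, since their transcripts were the ones that differed past the threshold (RefSeq, GRCm38.p6). They lie at chr17:56109783-56110032 on the minus strand for Plin4 and at chr7:141454938-141455187 on the plus strand for Pnpla2. Capitals mark matches to the motifs searched, on either strand.
Plin4: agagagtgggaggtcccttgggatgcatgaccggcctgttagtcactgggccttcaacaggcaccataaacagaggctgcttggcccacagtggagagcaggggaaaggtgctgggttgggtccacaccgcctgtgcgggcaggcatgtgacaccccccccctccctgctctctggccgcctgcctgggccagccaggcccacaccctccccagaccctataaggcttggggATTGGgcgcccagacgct
Pnpla2: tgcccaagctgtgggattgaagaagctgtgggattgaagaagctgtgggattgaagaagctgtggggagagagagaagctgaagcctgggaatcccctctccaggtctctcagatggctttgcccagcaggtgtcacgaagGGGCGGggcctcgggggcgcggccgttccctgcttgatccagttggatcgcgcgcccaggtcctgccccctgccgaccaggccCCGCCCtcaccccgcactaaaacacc
The windows were searched on both strands for 6 motifs. The nuclear receptor half-site was searched as AGGTCA. The element bound by PPARα with RXR was searched as a direct repeat of AGGNCA with 1 base between its copies, and such a match can hold the half-site. The E-box was searched as CACGTG and the TATA box as TATAAA, next to the CCAAT box and the GC box GGGCGG. In Plin4 the sole match was CCAAT on the opposite strand, at bases -18 to -14 from the start. In Pnpla2 GGGCGG matched at -109 to -104 and, on the opposite strand, at -26 to -21. CCAAT stood in 33.9% and GGGCGG in 32.7% of 32851 promoter windows of this length. Cidea was left out of this search. Over the 11 start sites of the other 9 members in RefSeq's table, GGGCGG matched in 7, CCAAT in 4 and AGGTCA in 3 (14.0% of all windows). TATAAA matched in 1 (12.4%), CACGTG in 0 (6.02%) and the direct repeat in 0 (0.338%). GC content was 65.2% in the Plin4 window and 63.2% in the Pnpla2 window, above the median of 52.4% over all windows. A match is a run of letters and was not tested for binding.

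Among the perilipins, Plin2 (adipophilin) coats most droplets of hepatocytes and is protected from degradation while bound to them. Its gene lies on chromosome 4 (86648386 to 86670060, minus strand, GRCm38). It had 289 and 213 CPM in DBA/2J and 359 and 438 CPM in C57BL/6J, or 251 ± 54.2 and 398 ± 55.9 CPM (SD, n = 2 each). Both DBA/2J libraries were below both C57BL/6J libraries, and the mice of each strain also differed from each other. The log2 difference was -0.67 ± 0.18 (SE), just short of the threshold (edgeR adjusted p = 0.0532). The call turned on the libraries and the tool. Plin2 was called lower without C57BL/6J replicate 1 (log2 difference -0.81, edgeR adjusted p = 0.00926) and without C57BL/6J replicate 2 (-0.52, 0.0456). It was also called when library totals alone set the scale (edgeR adjusted p = 0.0491) and by DESeq2 (adjusted p = 0.00323). It was not called without DBA/2J replicate 1 (-0.92, edgeR adjusted p = 0.111) or replicate 2 (-0.47, 0.260). An unprocessed pseudogene, Gm12551, matched a Plin2 transcript at 96.1% identity over 259 bases, or 7.38% of its counted exon bases, where reads may be shared.

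Plin4 (S3-12) coats small nascent droplets and is most abundant in fat and muscle. Its gene spans chr17:56100591-56109803 on the minus strand. In the livers it had 340 and 323 counts in DBA/2J and 657 and 663 counts in C57BL/6J. These counts gave 7.05, 5.84, 13.5 and 13.3 CPM, or 6.44 ± 0.855 CPM in DBA/2J and 13.4 ± 0.139 CPM in C57BL/6J (SD, n = 2 each). The strains did not overlap, and the C57BL/6J pair was nearly equal. The mean was 2.08 times as high in C57BL/6J, and the log2 difference was -1.06 ± 0.14 (SE, edgeR adjusted p = 0.00922). Leaving out DBA/2J replicate 1, the library with fat-cell reads, gave a log2 difference of -1.21 (edgeR adjusted p = 0.0833), and leaving out DBA/2J replicate 2 gave -0.93 (0.118). The direction stayed and the call was lost in both cases. Without C57BL/6J replicate 1 or 2 the call stayed, at -1.05 (edgeR adjusted p = 0.0024) and -1.07 (0.00175).

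Plin4 is also the one member whose transcript repeats itself over the length of a read. In its longest coding transcript (GENCODE M21, 5756 bases), 490 of 5657 windows of 100 bases (8.66%) occurred more than once, against 0 windows in each of the other 9 members. The repeats have a unit of 99 bases and span chr17:56103942-56107333 on GRCm38, in exons 5 and 6 of 9, all coding. That stretch holds 2798 exonic bases, or 28.3 units. It is the longest in which each window of 99 bases matched the following 99 bases at 50% or more. The identity of such windows was thus at least 50% by rule. It ranged from 50.5% to 100%, with a median of 74.8%. The run of 3 units shown, from exon 5 on the minus strand, was picked because its neighbouring units were the most alike. Other units of the stretch are less alike. Capitals mark bases that differ from the first unit. The units shown lie at chr17:56106304-56106402, chr17:56106205-56106303 and chr17:56106106-56106204.
Plin4 unit 1: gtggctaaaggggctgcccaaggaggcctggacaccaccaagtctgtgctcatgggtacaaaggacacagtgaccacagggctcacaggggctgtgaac
Plin4 unit 2: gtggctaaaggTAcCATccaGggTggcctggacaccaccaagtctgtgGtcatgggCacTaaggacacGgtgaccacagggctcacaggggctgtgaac
Plin4 unit 3: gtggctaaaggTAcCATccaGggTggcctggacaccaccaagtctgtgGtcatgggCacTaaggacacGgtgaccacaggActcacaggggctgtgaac
The second unit differed from the first at 11 bases (88.9% identity) and the third at 12 bases (87.9%). The stated reads of 100 bases are about as long as 1 unit, and under the counter's usual settings a read that fits several places goes uncounted. The GRCm38 reference represents C57BL/6J, so reads of DBA/2J can carry mismatches to it, and how many Plin4 reads were lost in either strain was not tested.

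Plin3 (TIP47), a soluble perilipin that binds young droplets in most cell types, was the member with the opposite sign among the tested perilipins. Its gene is on chromosome 17 (56278962 to 56290511, minus strand). It had 47.7 and 48.2 CPM in DBA/2J and 37.8 and 42.2 CPM in C57BL/6J, means of 48.0 ± 0.391 and 40.0 ± 3.14 CPM (SD, n = 2 each). Both DBA/2J libraries were above both C57BL/6J libraries. Its log2 difference was 0.26 ± 0.09 (SE, edgeR adjusted p = 0.102). Of the 4 fits that each left out 1 library, it was called in the one without C57BL/6J replicate 2 (0.34, edgeR adjusted p = 0.0236). A stretch of 137 of its 2159 counted exon bases (6.35%), in the untranslated part of its last exon, matched transcripts of 76 other symbols at 95% identity or more over at least 100 bases. Reads there are uncertain, and their part in the Plin3 difference was not tested.

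Plin5 (OXPAT), which ties droplets to mitochondria in tissues that burn fat, did not separate the strains. Its gene spans chr17:56111601-56117596 on the minus strand. It had 41.2 and 33.7 CPM in DBA/2J and 36.8 and 53.2 CPM in C57BL/6J, and the DBA/2J values lay on both sides of the lower C57BL/6J value. The log2 difference was -0.27 ± 0.20 (SE, edgeR adjusted p = 0.384). One library decided the value: it was -0.51 and called without C57BL/6J replicate 1 (edgeR adjusted p = 0.0200) and 0.02 without C57BL/6J replicate 2.

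Per kilobase of exon, Plin2 made up 65.7% and 60.6% of the summed level of the 4 perilipins in DBA/2J and 73.2% and 72.5% in C57BL/6J. Plin3 took 17.6% and 22.3% of it in DBA/2J, and 12.5% and 11.4% in C57BL/6J. The makeup of the perilipin transcripts thus did not overlap between strains for either gene. The ratio of Plin2 to Plin3 per length was 3.73 and 2.71 in DBA/2J and 5.84 and 6.38 in C57BL/6J. Plin5 held 15.8% and 16.1% against 12.6% and 14.8%. Plin4 was a minor part in every library, at 0.972% and 1.01% in DBA/2J and 1.67% and 1.34% in C57BL/6J. These shares use the same counts as the differences above and are not further evidence of them.

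**Figure D2:**
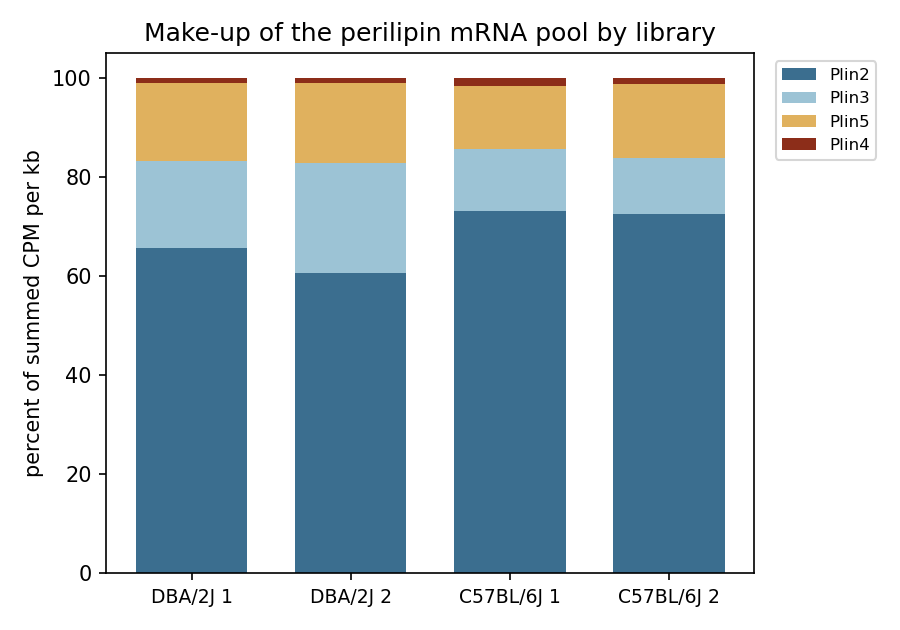
Share of the summed level per kilobase of exon that each of the 4 perilipin genes took, in percent, with 1 bar for each library. Plin2 takes 60.6% to 65.7% in the DBA/2J libraries and 72.5% to 73.2% in the C57BL/6J libraries, and Plin3 takes the larger share in DBA/2J.

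The CIDE genes showed no called difference, by edgeR or by DESeq2, and at an unadjusted p below 0.05 edgeR counted 1 of the 2 tested, Cidec. Cideb, the member of the family that liver normally expresses and that also serves the lipidation of very-low-density lipoprotein, had 51.7 and 48.8 CPM in DBA/2J and 45.1 and 53.4 CPM in C57BL/6J. The DBA/2J values lay between the C57BL/6J values. The gene spans chr14:55754045-55758458 on the minus strand. Between strains the log2 difference was 0.03 ± 0.11 (SE, edgeR adjusted p = 0.872), and its sign changed on leaving out either replicate 1, that of DBA/2J (-0.03) or that of C57BL/6J (-0.09). An interval of 1 SE on each side ran from -0.08 to 0.14. The Cideb level is uncertain in a second way: 76.4% of its exon bases overlap exons of Nop9 on the opposite strand, where reads counted without strand cannot be assigned to one gene.

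Cidec (Fsp27), which enlarges droplets in fat and rises in fatty liver, had 194 and 137 counts in DBA/2J and 242 and 309 counts in C57BL/6J. That was 4.02, 2.48, 4.97 and 6.19 CPM, with both DBA/2J libraries of this chromosome 6 gene (chr6:113424634-113435760, minus strand) below both C57BL/6J libraries but the DBA/2J pair 1.62-fold apart. The log2 difference was -0.79 ± 0.28 (SE, edgeR adjusted p = 0.107). Without C57BL/6J replicate 1 it was called (-0.95, edgeR adjusted p = 0.0362). Without the DBA/2J library that held fat-cell reads it was -1.19 (edgeR adjusted p = 0.172), and without DBA/2J replicate 2 it was -0.48. Per length, the ratio of Cideb to Cidec was 16.0 and 24.5 in DBA/2J and 11.3 and 10.7 in C57BL/6J. The overlap of Cideb with Nop9 makes the size of this ratio uncertain.

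Cidea, on chromosome 18, is a brown-fat gene that healthy liver hardly expresses, and it did not pass the filter. It had 14 counts in DBA/2J replicate 1 and 1 count in each of the other 3 libraries. The exact Poisson interval (95%, counting error only) was 7.65 to 23.5 for the 14 counts and 0.0253 to 5.57 for 1 count. The single high library is the one with fat-cell reads. There Plin1, the perilipin of fat cells, had 29 counts against 2, 0 and 1 in the others. Adipoq (adiponectin) had 17 against 0, 2 and 3 counts, and Slc36a2, an amino acid transporter of brown fat, had 15 against 0, 0 and 0. Lep (leptin) had 13 against 0, 0 and 0 counts. Of the 8 adipocyte markers, 2 passed the filter, of which 0 were called by edgeR or DESeq2 and 0 had an unadjusted p below 0.05 in edgeR. Fabp4 had 360, 344, 322 and 229 counts and Cfd had 28, 4, 30 and 47, so neither stood out in DBA/2J replicate 1, and Retn had 1, 1, 0 and 0. The summed level of the 8 markers was 10.9, 6.35, 7.26 and 5.63 CPM. Their part in the Cidea count, and in the levels of Plin4 and Cidec in that library, was not tested. The Plin4 and Cidec differences were larger in size without that library, as given above.

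**Figure D3:**
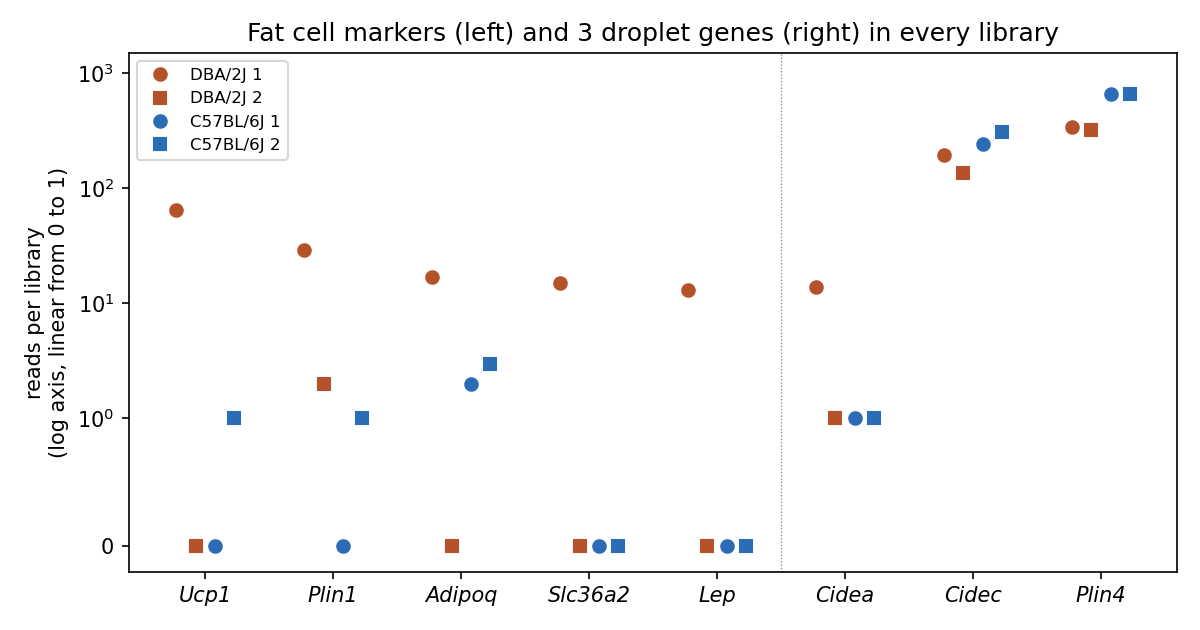
Counts of the fat-cell markers Ucp1, Plin1, Adipoq, Slc36a2 and Lep and of Cidea, Cidec and Plin4 in each of the 4 libraries. The listed markers Fabp4, Cfd and Retn, which did not stand out in DBA/2J replicate 1, are not drawn. Ucp1 reaches 65 counts, Plin1 29, Adipoq 17, Slc36a2 15, Cidea 14 and Lep 13 in DBA/2J replicate 1, and none of these passes 3 counts in the other libraries.

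Of the lipolysis genes, Pnpla2 differed with little spread within either strain. The gene lies on chromosome 7 (141455198 to 141460743, plus strand). The DBA/2J libraries held 3606 and 3925 of its counts and the C57BL/6J libraries 4757 and 4865, or 74.7, 71.0, 97.6 and 97.5 CPM. Both DBA/2J libraries were below both C57BL/6J libraries, and the means were 72.9 ± 2.68 and 97.5 ± 0.0906 CPM (SD, n = 2 each). The mean was 1.34 times as high in C57BL/6J, and the log2 difference was -0.42 ± 0.08 (SE, edgeR adjusted p = 0.0191). Without DBA/2J replicate 1 or 2 the value was -0.47 or -0.39 and the call was lost (edgeR adjusted p = 0.162 and 0.198). It was also lost when no filter on low counts was set, with an unchanged difference of -0.42 (edgeR adjusted p = 0.0530).

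Abhd5, the co-activator (chr9:122351608-122381524, plus strand), had 27.1 and 26.4 CPM in DBA/2J and 27.3 and 30.2 CPM in C57BL/6J. Both DBA/2J values were below both C57BL/6J values, the nearest of them by a small margin. For Abhd5 the log2 difference was -0.11 ± 0.10 (SE, edgeR adjusted p = 0.480). A stretch of 112 of its exon bases (1.88%) matched 2 other transcripts, and 950 overlap the antisense gene A730085K08Rik, which had 0, 0, 0 and 2 counts. Per length, the ratio of Abhd5 to Pnpla2 was 0.184 and 0.189 in DBA/2J and 0.142 and 0.157 in C57BL/6J, so the co-activator stood higher relative to the lipase in both DBA/2J libraries. The size of that ratio depends on the exon lengths used, and whether it differs between strains was not tested.

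G0s2, the inhibitor (chr1:193272161-193273217, minus strand), varied more between the C57BL/6J mice than between strains. It had 42.5 and 54.2 CPM in DBA/2J and 38.2 and 147 CPM in C57BL/6J. The C57BL/6J pair was 3.85-fold apart, and the DBA/2J values lay between its members. The log2 difference was -0.94 ± 0.57 (SE, edgeR adjusted p = 0.300). It was -1.61 and called without C57BL/6J replicate 1 (edgeR adjusted p = 1.06e-04), and 0.34 without C57BL/6J replicate 2 (0.106), so that each of these libraries decided its sign or its call. The ratio of G0s2 to Pnpla2 per length was 1.97, 2.65, 1.36 and 5.23. For both G0s2 and Plin5 the highest value of all libraries was that of C57BL/6J replicate 2. In C57BL/6J replicate 1, where both were lower than in that mouse, the 7 acute-phase genes summed to 15110 CPM, against 6382, 5283 and 7081 CPM in the others. The part of that difference in the G0s2 and Plin5 values was not tested.

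**Figure D4:**
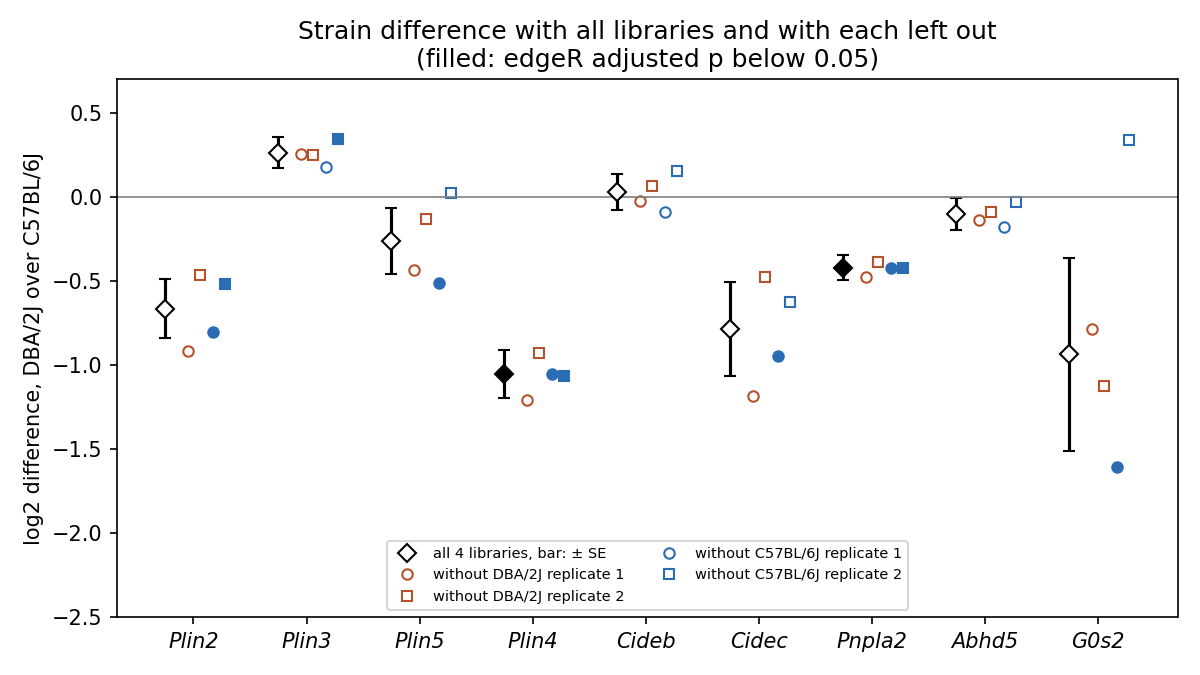
Difference between strains (log2, DBA/2J over C57BL/6J) of the 9 tested genes with all libraries (diamonds, bars of 1 SE) and with each library left out (circles and squares), filled where the edgeR adjusted p is below 0.05. Plin4 and Pnpla2 are filled with all libraries, open without either DBA/2J library and filled without either C57BL/6J library, and G0s2 spans -1.61 to 0.34.

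Leaving out a DBA/2J library left that strain with 1 mouse, assumed to vary like the C57BL/6J pair, and took the members called from 2 to 0. In those fits 1.79% and 1.92% of all tested genes were called. Leaving out C57BL/6J replicate 1 or 2 likewise left 1 C57BL/6J mouse, assumed to vary like the DBA/2J pair. More members were called in those fits than with all libraries, and so was a larger share of all tested genes. The shares of all genes given for the fit with all libraries are thus no measure for counts with 1 library left out. All calls given here without a C57BL/6J library take no account of the spread between the C57BL/6J mice.

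Ordered by level per kilobase of exon, Plin2 came first in both strains, with 71.5 CPM per kilobase in DBA/2J and 113 in C57BL/6J. G0s2 followed with 55.5 and 106, and by this length its libraries overlapped those of Plin2 in both strains. Cideb (33.7 and 33.0), Pnpla2 (24.1 and 32.3), Plin3 (22.2 and 18.5) and Plin5 (17.9 and 21.6) formed the middle. The place of Cideb is uncertain. Its level was divided by all its exon bases, of which 76.4% overlap Nop9, and so may be understated. In C57BL/6J the libraries of Cideb and Pnpla2 overlapped, as did those of Plin5 and Plin3, whereas in DBA/2J these neighbours did not. Abhd5 (4.49 and 4.83), Cidec (1.75 and 3.01), Plin4 (1.12 and 2.32) and Cidea (0.132 and 0.0174) came last, in that order in both strains. The length of the longest coding transcript of GENCODE M21 was also used in place of all counted exons. Plin2 then stood at 133 and 211 and G0s2 still at 55.5 and 106, so their nearness depends on the length used. By that transcript Plin5 ranked above Plin3 in DBA/2J too. For Plin3 that transcript has 3645 bases against 2159 counted exon bases, so these lengths do not cover the same bases.

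Genes that make droplets showed 2 called members. Of 9 droplet biogenesis genes, 0 were higher and 2 lower by edgeR, with a median log2 difference of -0.20. The strains did not overlap for any of the 9. Over all tested genes 9.29% were higher, 8.87% lower and 63.8% without overlap in edgeR's fit to all libraries. DESeq2 on all libraries called 21.1% of them in either direction. These shares stand beside this count and those of the lists that follow, but not beside counts with 1 library left out. The lists were chosen with earlier results of these data known, so such a comparison is a description and not a test. Of the 9 droplet biogenesis genes, DESeq2 called 1 higher and 3 lower. The called genes were both FIT proteins of the endoplasmic reticulum, which help droplets bud. Fitm1 had 539, 400, 1099 and 1829 counts, lower in both DBA/2J libraries, with a log2 difference of -1.69 ± 0.30 (SE, edgeR adjusted p = 0.0181). Fitm2 had 1977, 2370, 3056 and 4032 counts, also without overlap, with a log2 difference of -0.78 ± 0.13 (SE, edgeR adjusted p = 0.0168). Both calls were lost on leaving out the first DBA/2J mouse (edgeR adjusted p = 0.0895 and 0.166) or the second (0.139 and 0.139). Pcyt1a, which makes phosphatidylcholine for growing droplets, stood at 0.40 (edgeR adjusted p = 0.0579), and it was called by DESeq2 (adjusted p = 0.0276), with library totals alone (edgeR, 0.0375) and without C57BL/6J replicate 2 (0.54, edgeR adjusted p = 0.00327). Acsl3, an acyl-CoA synthetase of nascent droplets, stood at -0.46 (edgeR adjusted p = 0.0812), and it was called by DESeq2 (adjusted p = 0.0447) and without C57BL/6J replicate 1 (-0.63, edgeR adjusted p = 0.00588).

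Of 12 other droplet proteins, 11 were tested, 0 were higher and 2 were lower, with a median log2 difference of -0.17. Aup1, a droplet protein that recruits a ubiquitin-conjugating enzyme, fell by 0.36 on the log2 scale (SE 0.08, edgeR adjusted p = 0.0377). Mettl7b, a droplet-associated methyltransferase, fell by 0.40 (SE 0.10, edgeR adjusted p = 0.0415). Both calls needed both DBA/2J mice: the edgeR adjusted p was 0.239 for Aup1 and 0.237 for Mettl7b with the first left out, and 0.262 and 0.285 with the second left out. Both were also lost with library totals alone (edgeR adjusted p = 0.0692 and 0.0553) and with no filter on low counts (0.0838 and 0.0503). The list had 4 lower without C57BL/6J replicate 1, and without replicate 2 it had 1 higher and 2 lower. Faf2, which moves onto droplets and restrains the lipase, stood at 0.23 (edgeR adjusted p = 0.112), and Hsd17b13, an abundant droplet enzyme of hepatocytes, at 0.30 (0.112). Of 10 other lipases, 0 were called by edgeR or by DESeq2, 1 stood at an unadjusted p below 0.05 in edgeR, and the median was 0.01. Lipa, the lysosomal acid lipase, had the lowest adjusted p of them (log2 difference 0.25, edgeR adjusted p = 0.0726), and it was called when library totals alone set the scale (0.0341). Without C57BL/6J replicate 1, 1 lipase was called higher and 2 lower, and the median was -0.11.

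**Figure D5:**
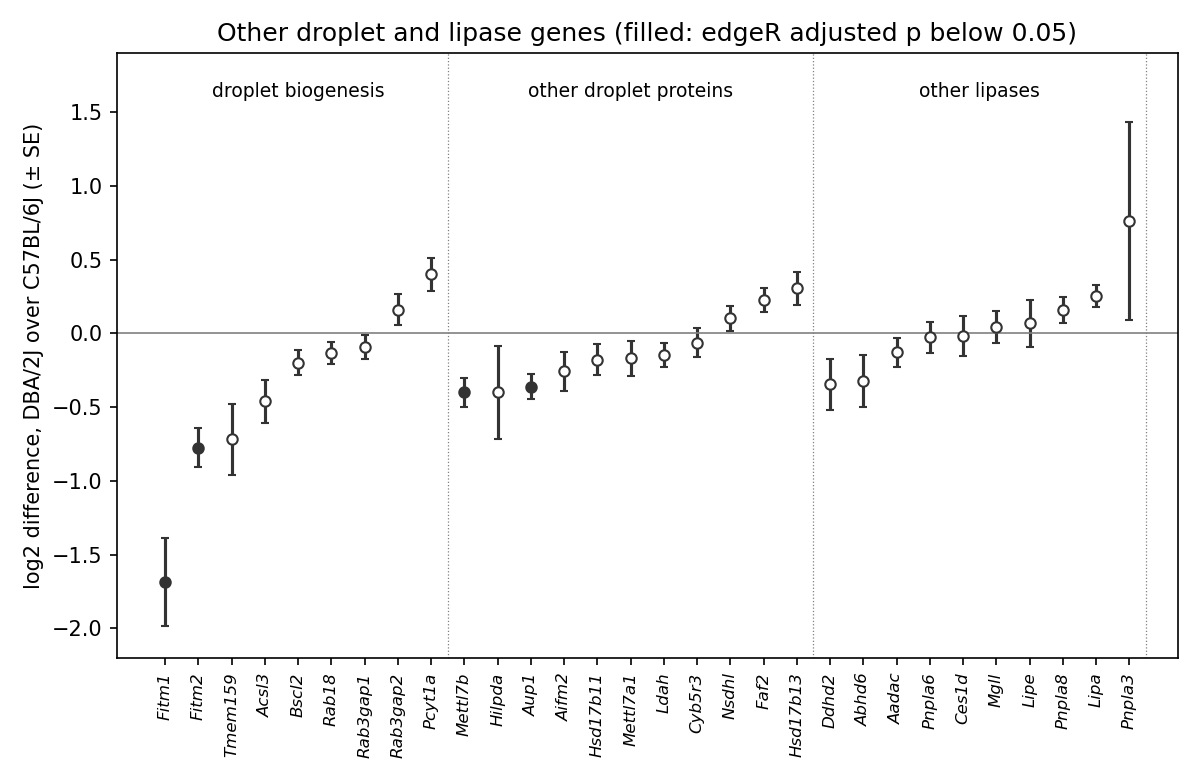
Difference between strains (log2, DBA/2J over C57BL/6J, bars of 1 SE) of the other droplet and lipase genes tested, filled where the edgeR adjusted p is below 0.05. Fitm1, Fitm2, Mettl7b and Aup1 are filled and below 0, and none of the 10 lipases is filled.

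Regulators of these genes did not share a direction. Of 10, 2 were called higher and 1 lower, with a median log2 difference of 0.08. Srebf1, the activator of fatty acid synthesis genes, rose by 0.68 (edgeR adjusted p = 0.00714), Ppargc1a, a co-activator of fasting metabolism, rose by 0.91 (0.0326), and Nr1h3 (LXRα) fell by 0.33 (0.0356). All 3 calls were lost without either DBA/2J mouse (edgeR adjusted p up to 0.266), and that of Nr1h3 also with library totals alone (0.0738) and with no filter on low counts (0.0818). The list had 2 higher and 2 lower without C57BL/6J replicate 1, and 5 higher and 1 lower without replicate 2. Ppara, the nuclear receptor of fasting that acts on Plin2 and Plin5 among others, stood at 0.36 with overlapping strains (edgeR adjusted p = 0.234). Its value turned on the libraries: it was called without C57BL/6J replicate 2 (0.64, edgeR adjusted p = 0.00834), whereas leaving out replicate 1 of C57BL/6J or of DBA/2J gave 0.13 (0.515) or 0.19 (0.705). Of 13 fasting-induced genes, 0 were higher and 4 lower, with a median of -0.25. These were Igfbp1 (-3.42, edgeR adjusted p = 4.72e-04), Cyp4a14 (-3.40, 0.00747), Txnip (-1.46, 0.00805) and Vnn1 (-0.61, 0.0178). The first 3 stayed called without any 1 library (edgeR adjusted p up to 0.0475), and Vnn1 did not (up to 0.192). In this list 7 genes were lower and 0 higher without C57BL/6J replicate 1, without replicate 2 it was 4 and 2, and DESeq2 called 6 lower and 1 higher. Of 12 clock genes, 2 were higher and 0 lower, with a median of 0.27: Clock (0.54, edgeR adjusted p = 0.0218) and Arntl (0.93, 0.0273). Both calls were lost without either DBA/2J mouse (edgeR adjusted p of 0.103 to 0.266). Clock genes counted 2 higher and 2 lower without C57BL/6J replicate 1, and 4 higher and 0 lower without replicate 2. The clock and fasting values stand beside the lower Plin4 and Pnpla2, and their part in them was not tested.

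The count of called markers of other liver cells turned on the libraries, and counts with a library left out have no share of all genes beside them. Among 8 stellate cell markers, which include genes of cells that store retinyl ester in droplets of their own, 1 was higher and 0 lower, and all 8 log2 differences were positive (median 0.60). Without C57BL/6J replicate 1, the acute-phase library, 7 of the 8 were called higher (median 0.82), and DESeq2 called 3. Without C57BL/6J replicate 2 the median was 0.30, with 1 called and 2 negative, and without DBA/2J replicate 2 it was 0.23, with 0 called. The one called by edgeR with all libraries was Reln, with a log2 difference of 1.30 (edgeR adjusted p = 0.00453, and 0.0615 or 0.0731 without a DBA/2J mouse). Their summed level was 291 and 361 CPM in DBA/2J and 268 and 177 CPM in C57BL/6J. Among 8 Kupffer cell markers, 1 was lower, Marco (-2.97, edgeR adjusted p = 0.0238, and 0.199 or 0.151 without a DBA/2J mouse), and the summed level was 153, 158, 173 and 134 CPM. Of the 7 hepatocyte and 7 acute-phase genes, 0 were called by edgeR, with medians of -0.08 and -3.39, although 1 of the former and 6 of the latter had an unadjusted p below 0.05 in edgeR, and DESeq2 called 2 and 5. The acute-phase median was -0.93 without C57BL/6J replicate 1, with 2 called lower, and -4.25 without C57BL/6J replicate 2, with 6 called lower. The part of these cell types in the droplet genes was not tested.

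The genes Plin3, Plin4 and Plin5 lie close together on chromosome 17. The start of Plin5 is 7793 bases from that of Plin4, and the start of Plin3 is 180708 bases from it. Their log2 differences were -0.27, -1.06 and 0.26, and of these 3 genes the one called was Plin4. Among tested genes that are not members and start within 200 kb of one, each taken once, 3 of 107 were called higher and 11 lower (13.1%, against 18.2% of all tested genes). Near Plin4 itself, 0 of 20 neighbours were called. Near Plin3, Ptprs was called higher (1.21, edgeR adjusted p = 0.0150). Near Cideb, 5 of 28 were called lower: Fitm1, Psme1, Psme2, Rec8 and Nedd8. Near Pnpla2, Taldo1 and Rplp2 were lower and Eps8l2 was higher, of 19. The other called neighbours were Rps6 near Plin2 (lower), Tubb6 near Cidea (lower), Jagn1 and Creld1 near Cidec (lower) and Hsd11b1 near G0s2 (higher).

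The genes with profiles most like the called members were sought by the Euclidean distance between centred log2 CPM values over the 4 libraries, among 9114 genes. Nearest to Plin4 were Hspb6 (distance 0.0657), H2-T22 (0.0679) and Abhd10 (0.0935), and 4 genes lay within 0.1. Nearest to Pnpla2 were Cpb2 (0.0171), H13 (0.0215) and Mrps7 (0.0227), and 168 genes lay within 0.1. With 4 libraries such a profile holds little more than the strain difference and the spread within each strain.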

How the data were processed

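Liver poly(A) RNA of 2 DBA/2J and 2 C57BL/6J mice was measured. The deposited values are raw counts of reads per gene symbol; featureCounts 2.0.1 made them, per the file headers, from exons of Ensembl release 88 (GRCm38), with the paired-end option, although the labels state single-end reads. Per the submitters' processing notes, STAR 2.4.0g1, featureCounts 1.5.2 and mm10/GRCm38 were used. The header names no option for strand or for reads with several alignments. Total counts were 48096706, 52520737, 50300507 and 51172556 (DBA/2J 1 and 2, C57BL/6J 1 and 2). Floors and Poisson intervals cover counting error only.

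Counts were tested with edgeR 4.0.16 (R 4.3.3) by the quasi-likelihood F test (legacy=FALSE) with TMM scaling, filterByExpr at a minimum count of 10 and strain as the sole term, on all 4 libraries. Benjamini-Hochberg adjustment ran over 15647 genes, and calls were made below 0.05. SEs were derived from the F statistic. The fit was tested on simulated counts. DESeq2 1.42.0, other scalings and filters, a replicate block and each library left out were alternatives. Same-numbered libraries did not deviate together (r = -0.06), so the numbers were not taken as pairs.

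The members and lists were chosen with earlier results of these data known. Named were all members, the 4 lowest adjusted p-values in each list at most, called genes where a list had 5 or fewer, called genes starting within 200 kb of a member, and the 3 nearest profiles (mean of at least 5 CPM) of up to 2 called members. Ucp1, Plin1, Slc36a2, Adipoq, Lep, Retn and Saa1 are named beside the results they touch. Promoters are RefSeq's (GRCm38.p6); repeats and transcript copies (blastn 2.17.0) used GENCODE M21. Levels between genes were set per kilobase of exon.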

Additional observations from a re-analysis of the deposited data

How the results depend on the processing

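Of 99 alternative values for the 9 tested members, 82 kept their direction and their side of the threshold, 8 crossed to a call, 5 lost one and 4 changed sign. All 4 sign changes came from leaving out 1 library: the log2 difference then ranged from -0.51 to 0.023 for Plin5, from -0.093 to 0.15 for Cideb (-0.028 without the first DBA/2J mouse) and from -1.61 to 0.34 for G0s2. The members called, 2 in the reported fit, ranged from 0 to 6 with 1 library left out, those higher from 0 to 1 and those lower from 0 to 6, while the genes called, 2842 in the reported fit, ranged from 292 to 4905. With no filter beyond 1 count, 1 member was called, lower, and 1516 of 25810 genes. Under the other scalings and filter, the older edgeR form and DESeq2, 2 or 3 members and 2606 to 3300 genes were called. Library totals alone moved the median of all genes from 0.01 to 0.09 and the share of higher calls from 51.2% (1454 higher, 1388 lower) to 65.3% (1924 higher, 1024 lower). With the replicate block, 2 members and 2395 genes were called, and no member's call changed; the G0s2 difference was then -0.65. In the other lists the replicate block added calls of Pcyt1a (edgeR adjusted p = 0.0489), Acsl3 (0.0462), Per2 (0.0287) and Ciart (0.0158). It took away those of Aup1 (0.0524), Mettl7b (0.0717) and Nr1h3 (0.0611), and it gave 5 lower and 1 higher fasting-induced genes and 4 lower acute-phase genes (median -2.68). With no filter, the calls of Fitm1, Fitm2, Aup1, Mettl7b, Nr1h3, Ppargc1a, Clock, Vnn1 and Marco were lost too (edgeR adjusted p of 0.0503 to 0.0838). The median log2 difference of the members tested in each fit ranged from -0.475 to -0.00476 with 1 library left out. Over the 9 members without Cidea it ranged from -0.512 to -0.0328. Cidea, at 1 to 14 counts, and the spread of 2 mice a strain limit what can be said of small differences.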
